A study of Mus musculus with 6 samples.

Results

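Open chromatin was described here at 10 genes of the SOX family of transcription factors: Sox4, Sox5, Sox6, Sox7, Sox9, Sox11, Sox12, Sox13, Sox18 and Sox21. The members were the peaks whose gene column in the authors' deposited table of all peaks names one of these genes. They were 58 of 70494 peaks, from 1 peak each at Sox18 and Sox21 to 11 peaks each at Sox5 and Sox6. The genes were chosen by name and not by a measured value, though with earlier results of these data known. The assay was ATAC-seq: a transposase inserts adapters where DNA is free of nucleosomes, and the reads pile up there as peaks. The cells were mouse definitive endoderm, the germ layer that forms the gut and its organs, differentiated from epiblast stem cells of the line 7H OTX2-dTAG-EGFP (a BL6/129 hybrid). Both groups carried the tagged OTX2, a homeodomain factor, and went through the same differentiation. The first step, 16 h long, used Activin A (40 ng/ml) and CHIR (3 uM). The second, 24 h long, used Activin A (100 ng/ml) and LDN (100 nM). From the primitive streak stage, 3 libraries had DMSO, the solvent, for 24 h and 3 had dTAG13, a small molecule that directs the tagged protein to degradation. The libraries came from a single tagged line, and no untagged line treated with dTAG13 was analysed here. Because the study's design describes replicates within each group as technical, the standard errors below measure the spread between libraries and need not include that between cultures. For each peak, a mean over all libraries and a fold change are given, without values per library, so the levels of each group below were computed from the mean and the fold change and are approximate. At 14 of the 58 peaks the level of a group was under 3 normalized counts, and the fold change there is not well determined. Among the peaks described below these are the Sox5 start site peak and the Sox5 peak with the lowest value, the Sox6 start site peak, the Sox11 peaks 22995 and 66153 bases downstream, the weaker Sox9 peak and the Sox7 upstream peak. None of the 3 called peaks is among them. Whether the libraries of the groups overlap was not analysed here. The sequencing depth is unknown, and the loss of OTX2 protein was not measured in these files. In a bulk sample, fewer cells with a site open and less opening in each cell cannot be told apart.

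SOX proteins bind DNA through an HMG box, which sits in the minor groove and bends the helix, and they usually act together with a partner factor at neighbouring sites. They are sorted into groups by the sequence of that box. The SoxC factors (Sox4, Sox11, Sox12) are activators of progenitor cells. The SoxD factors (Sox5, Sox6, Sox13) lack a transactivation domain of their own, pair through a coiled coil and modulate other factors. Sox9, of group SoxE, acts in cartilage, testis and in progenitors of pancreas and other endoderm-derived organs. Sox7 and Sox18 belong to SoxF, the group of Sox17, and are best known from blood vessels. Sox21, of SoxB2, acts as a repressor and takes part in the patterning of the anterior foregut.

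Of the 57 member peaks with an adjusted p in the authors' deposited table, 3 were called at an adjusted p under 0.05: 1 peak lower in dTAG13, at Sox13, and 2 higher, at Sox6 and Sox11. The other 7 genes had no call. Over all peaks of that table the called share was 5.26% (3.79% lower and 1.47% higher in dTAG13), and the members' share was also 5.26%, so the share of calls at the SOX loci was that of the table at large. An unadjusted p under 0.05 was given for 10 member peaks (17.2%), against 19.7% of all peaks. The split of the called peaks moved with the choice of zero: 1 lower and 2 higher as deposited became 1 and 1 when fold changes were centred on the peaks found in both groups' lists, and 1 and 3 when centred on all peaks. Over the whole table the split of 2622 lower and 1016 higher became 3159 and 790, 2056 and 1958, or, centred within deciles of GC content, 1380 and 2254.

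The DNA of the 3 called peaks is shown first, because the change at these loci rests on them. Next comes that of the 2 member peaks in which the letters bound by OTX factors were found inside the peak and within 100 bases of its midpoint. Last is a peak near a start site at the 5′ end of Sox5, just outside the threshold. All are from mm10, plus strand, 5′ to 3′. Capitals mark every match, on either strand, to any of a small set of words. The OTX word is GGATTA. Its letters in reversed order, ATTAGG, serve as a control. The SOX word is ACAATG, with the variant ACAAAG. The FOX word is TGTTTAC. The GATA word is AGATAA. The TEAD word is GGAATG. The TCF word is ATCAAAG. The T-box word is AGGTGTGA.
Sox13 intronic peak, chr1:133397820-133398092: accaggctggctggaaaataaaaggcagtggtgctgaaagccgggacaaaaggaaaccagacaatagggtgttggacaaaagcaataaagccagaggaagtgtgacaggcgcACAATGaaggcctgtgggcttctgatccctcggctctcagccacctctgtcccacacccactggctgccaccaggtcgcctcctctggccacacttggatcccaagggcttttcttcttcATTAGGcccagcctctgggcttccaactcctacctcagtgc
Sox6 intronic peak, chr7:115904347-115904597: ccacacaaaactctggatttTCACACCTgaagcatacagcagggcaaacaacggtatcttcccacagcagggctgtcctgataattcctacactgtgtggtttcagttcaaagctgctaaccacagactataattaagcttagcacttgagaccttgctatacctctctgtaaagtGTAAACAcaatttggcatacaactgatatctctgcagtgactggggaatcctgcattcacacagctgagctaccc
Sox11 distal peak, chr12:27312201-27312404: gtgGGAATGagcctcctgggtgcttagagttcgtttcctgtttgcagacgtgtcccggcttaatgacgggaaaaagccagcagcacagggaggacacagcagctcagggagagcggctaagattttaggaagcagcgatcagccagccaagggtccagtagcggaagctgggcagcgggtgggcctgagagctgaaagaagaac
Sox7 upstream peak, chr14:63942469-63942604: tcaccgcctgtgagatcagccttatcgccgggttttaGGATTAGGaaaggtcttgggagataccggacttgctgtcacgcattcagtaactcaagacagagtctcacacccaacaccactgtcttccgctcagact
Sox11 upstream peak, chr12:27357201-27357311: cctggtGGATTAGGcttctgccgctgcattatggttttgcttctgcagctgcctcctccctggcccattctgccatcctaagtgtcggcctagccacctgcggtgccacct
Sox5 start site peak, chr6:144781475-144781561: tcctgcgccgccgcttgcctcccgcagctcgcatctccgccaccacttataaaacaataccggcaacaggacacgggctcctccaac
None of the 3 called peaks held the OTX word. The Sox13 peak held a SOX word (ACAATG at base 113 of the peak) and the control word (base 233). The Sox6 peak held a T-box word on the minus strand (base 21) and a FOX word (base 177, also minus strand), and the Sox11 distal peak a TEAD word (base 4). In the Sox7 and Sox11 upstream peaks the OTX word overlapped the control word, in the letters GGATTAGG. The Sox5 start site peak held none of the words within its 87 bases.

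Sox13 gave the lowest adjusted p among the members. The called peak, 273 bases long, lay in intron 1 of 13 of Sox13 (chromosome 1), 4686 bases upstream of the nearest start site of the gene, and overlapped no exon in GENCODE release 21 or RefSeq. Its mean normalized count over the 6 libraries was 13.6 in the authors' deposited table, which with the deposited fold change implies about 22.5 in DMSO and 4.78 in dTAG13. The signal fell by 2.23 on the log2 scale, a 4.7-fold loss (SE 0.61, 95% interval -3.42 to -1.05, adjusted p 0.0117 in the authors' deposited table). The peak was in the pooled DMSO peak list and not in the dTAG13 list. The other 7 peaks of Sox13 were not called. Over all peaks of the authors' deposited table, 58.2% of values were below 0, with a median of -0.18. Of the 8 Sox13 peaks, 7 had a value below 0, with a median of -0.85 and a range from -2.23 to 0.46. The strongest of them, an intergenic peak 8517 bases upstream of the gene (chr1:133432798-133432989), had implied levels of 28.2 and 23.7 and a log2 fold change of -0.25 (SE 0.34, 95% interval -0.92 to 0.42), per the authors' deposited table. Thus a loss as large as that of the called peak lay outside its interval. The stronger of the pair of Sox13 promoter peaks (chr1:133424316-133424447, over the most upstream start site) was weak, with implied levels of 8.21 and 4.32 and a value of -0.93 (SE 0.75, adjusted p 0.526), per the authors' deposited table.

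At Sox6, the called peak lay in intron 2 of 15 (chromosome 7), 44620 bases upstream of the nearest annotated start site of the gene. The implied level was 8.4 normalized counts in DMSO and 24.9 in dTAG13. The signal rose by 1.57 on the log2 scale, or 2.96-fold (SE 0.46, 95% interval 0.66 to 2.47, adjusted p 0.0236 in the authors' deposited table). The region was open in both groups: the DMSO list had a peak of 97 bases inside the 251 bases of the dTAG13 list's peak. The other 10 Sox6 peaks were not called, of which 1 had no adjusted p. Of the 11, 8 had values below 0, the opposite sign to the called peak, against 58.2% of all peaks in the whole table. Among the peaks not called, 3 intergenic ones beyond the 3′ end of the gene had mean normalized counts of 14.6, 11.9 and 13.8. Their log2 fold changes were -0.38, -0.68 and 0.56 (SE 0.50, 0.55 and 0.48), per the authors' deposited table. The peak at a Sox6 start site (chr7:116034684-116034747) had implied levels of only 6.35 and 1.99, and its value of -1.68 (SE 0.99, adjusted p 0.348, per the authors' deposited table) did not pass.

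Sox5, the third SoxD gene, had 11 peaks and no call, yet its values had the widest range of the members, from -4.45 to 3.06 on the log2 scale in the authors' deposited table. A pair of peaks stood at its 5′ end, each near an annotated start site. The one printed above, centred 401 bases downstream of the nearest start site and over no annotated exon, had implied levels of 1.04 in DMSO and 8.69 in dTAG13 and a value of 3.06 (SE 1.05, adjusted p 0.0603), per the authors' deposited table. Its neighbour, centred 94 bases downstream of the nearest start site and over an exon (chr6:144781762-144781888) went the other way in sign, with 7.91 and 4.45 and a value of -0.83 (SE 0.81, adjusted p 0.61), per the authors' deposited table. The first was in the dTAG13 list alone and the second in the DMSO list alone. The difference between these neighbours was not tested. The lowest value, -4.45 (SE 1.62, adjusted p 0.0809, per the authors' deposited table), belonged to an intronic peak (chr6:144183208-144183304) with a mean normalized count of 2.35. Its implied dTAG13 level was 0.206. The strongest Sox5 peak, in intron 4 of 13 (chr6:144250864-144251079), had implied levels of 19.0 and 14.9 and a value of -0.35 (SE 0.43), per the authors' deposited table.

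**Figure D1:**
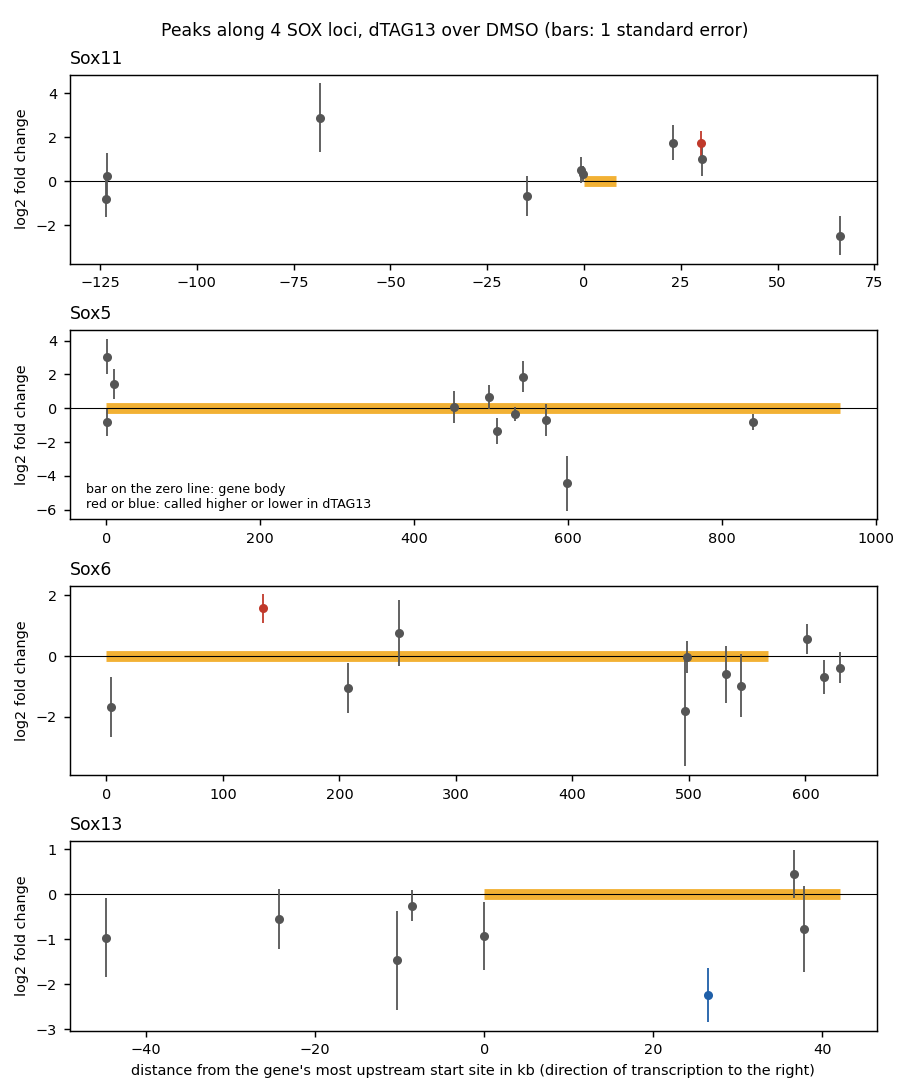
Log2 fold change of dTAG13 over DMSO (vertical axis, bars 1 SE) of each peak by its distance in kb from the most upstream start site of Sox11, Sox5, Sox6 and Sox13 (horizontal axis). The bar on the zero line is the gene body; the called peaks are the red points at Sox11 and Sox6 (1.72 and 1.57) and the blue point at Sox13 (-2.23).

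Among the SoxC genes, the call was at Sox11, a single-exon gene with 10 peaks, 9 of which had its own start site as the nearest one. The called peak (chromosome 12) lay 30271 bases downstream of the Sox11 start site. It is intergenic in the authors' annotation and GENCODE, and overlaps an exon of Gm52005, a predicted long noncoding RNA, in RefSeq. The implied level was 5.37 in DMSO and 17.7 in dTAG13. The signal rose by 1.72 on the log2 scale, or 3.3-fold (SE 0.56, 95% interval 0.63 to 2.82, adjusted p 0.0436 in the authors' deposited table), and the peak was in the dTAG13 list alone. Centred on the peaks of both lists, its adjusted p became 0.0571 and the call was lost. A smaller peak whose edge lies next to it (chr12:27312064-27312137) and another 22995 bases downstream of the start site (chr12:27319519-27319639) had values of the same sign, 0.99 (SE 0.76) and 1.75 (SE 0.80), per the authors' deposited table, and did not pass. All 3 of these downstream peaks were in the dTAG13 list alone. That list comes from the same libraries as the fold changes, so it adds no separate support to the shared sign. Farther downstream, 66153 bases from the Sox11 start and 9854 from that of Gm47860, a peak of the DMSO list alone (chr12:27276347-27276495) had the opposite sign, with implied levels of 10.9 and 1.96 and a value of -2.48 (SE 0.89, adjusted p 0.0748), per the authors' deposited table. At the promoter itself, the stronger Sox11 peak (chr12:27342622-27342847) had implied levels of 22.8 and 28.4 and a value of 0.32 (SE 0.35, 95% interval -0.37 to 1.01), per the authors' deposited table.

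Sox4 and Sox12 had no call. The Sox4 promoter peak (chr13:28953616-28953936) was, with a Sox12 peak, the strongest of the members at a mean normalized count of 43.8. Its implied level in DMSO was 37.5 and its value 0.42 (SE 0.27, 95% interval -0.12 to 0.95, adjusted p 0.408), per the authors' deposited table. Upstream of Sox4, 4 intergenic peaks had values from -0.98 to -0.42, and the farthest, 21088 bases away (chr13:28974719-28974882), had 1.35 (SE 0.82, the lowest p at Sox4, adjusted p 0.367), per the authors' deposited table. At Sox12, 4 of 6 peaks had mean normalized counts of 28.1 to 43.8, and their log2 fold changes lay between 0.02 and 0.33 with SE of 0.27 to 0.35 in the authors' deposited table. The promoter peak of Sox12 (chr2:152398090-152398285) had implied levels of 31.0 and 39.1 and a value of 0.33 (95% interval -0.24 to 0.91), per the authors' deposited table, which leaves a log2 rise of 1 outside the interval. The lowest p at Sox12 belonged to a weak peak just past its 3′ end (chr2:152392952-152393062), with implied levels of 5.65 and 12.6 and a value of 1.16 (SE 0.66, adjusted p 0.322), per the authors' deposited table.

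The single genes of the other groups had few peaks and no call. The Sox9 promoter peak (chr11:112782033-112782236) had nearly equal implied levels, 19.3 in DMSO and 20.9 in dTAG13, and a value of 0.12 (SE 0.41, 95% interval -0.69 to 0.92), per the authors' deposited table. A weak second peak, 2306 bases into the Sox9 gene (chr11:112784490-112784569), had 7.4 and 1.54 and a value of -2.26 (SE 1.07, adjusted p 0.209), per the authors' deposited table. At Sox7, the peak printed above, 1136 bases upstream of the start site, had implied levels of 8.75 and 2.3 and a value of -1.93 (SE 0.94, adjusted p 0.227), while the promoter peak (chr14:63943530-63943711) had 11.1 and 8.58 and -0.37 (SE 0.58), per the authors' deposited table. Sox18 had no peak within 1000 bases of its start site. Its only peak (chr2:181675517-181675735), 3986 bases upstream, was strong, with implied levels of 29.6 and 39.1 and a value of 0.4 (SE 0.31, adjusted p 0.49), per the authors' deposited table. The only Sox21 peak, 63 bases over the start site (chr14:118236974-118237036), had 6.58 and 3.93 and a value of -0.74 (SE 0.89, 95% interval -2.50 to 1.01, adjusted p 0.692), per the authors' deposited table.

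**Figure D2:**
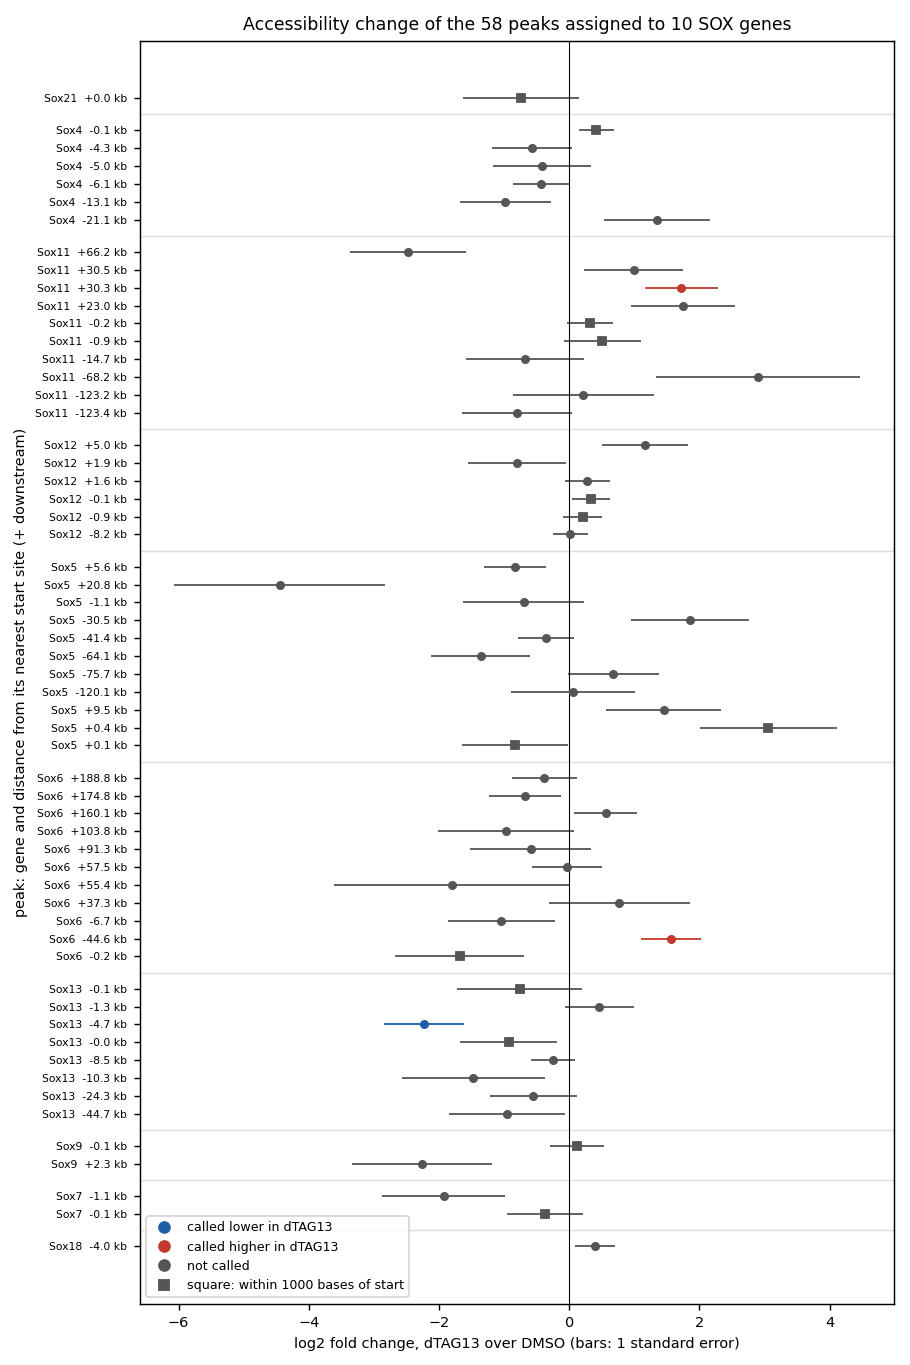
Log2 fold change of dTAG13 over DMSO (horizontal axis) of each of the 58 peaks, with bars of 1 SE from the authors' deposited table. Rows give the gene and the distance in kb from its nearest start site, squares mark peaks within 1000 bases of it, and colours mark the 3 called peaks.

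By SOX group, the medians of SoxC and SoxD differed in sign, with values on both sides of 0 in each. Of 22 SoxC peaks, 14 had values above 0, with a median of 0.25, and of 30 SoxD peaks 21 had values below 0, with a median of -0.64. The table's median over all peaks was -0.18, with 58.2% of values below 0, and that of the 58 member peaks was -0.38, with 56.9% below 0. All 5 SoxC promoter peaks were above 0 (0.21 to 0.51) and 4 of 5 SoxD promoter peaks below it (range -1.68 to 3.06), and none of these 10 was called. The 5 SoxC promoter peaks were in both pooled lists. The 4 SoxD promoter peaks below 0 were in the DMSO list alone, and the 1 above 0 in the dTAG13 list alone. Lists and fold changes come from the same libraries, so the signs are not separate from the lists. Away from promoters, the 17 SoxC peaks had a median of 0.02, with 8 below 0 (47.1%). The 25 SoxD peaks there had a median of -0.55, with 17 below 0 (68.0%). Over all peaks of the table away from promoters, the median was -0.38, with 63.2% below 0. Thus the SoxD share there was near that of the table, and the SoxC share was lower. Over all promoter peaks of the table, the median was 0.03, with 47.4% below 0. Within SoxC, Sox4 had 4 of 6 values below 0 and a median of -0.43, while the medians of Sox11 and Sox12 were 0.42 and 0.25. Strength and base composition moved with the groups: the median mean normalized count was 8.21 at SoxC and 6.11 at SoxD, the share of peaks under 5 was 18.2% and 40.0%, and the median GC content 58.4% and 54.7%. The difference between the groups and the part of strength and composition in it were not tested.

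Signal strength went with the sign across the members, as in the table at large. The 8 member peaks whose mean normalized count reached 25 (4 at Sox12 and 1 each at Sox4, Sox11, Sox13 and Sox18) had log2 fold changes from -0.25 to 0.42 in the authors' deposited table, and 7 of them were above 0. None was called, against 4.59% of all peaks of that strength, of which 41.6% had values below 0. This limit of 25 was chosen after the values were seen. In 6 of the 8 the whole 95% interval lay within a log2 change of 1 in either direction. Of the 22 member peaks with at least 10 the median was 0.16, above 0, while 17 of the 58 peaks (29.3%) had a count under 5. The strictness of the deposited threshold limits what could be seen at weak peaks. With the standard errors of the table, a peak needed a change of 3.01 SE to be called, which for the members came to a median of 2.26 on the log2 scale, or 4.8-fold. An observed log2 change of 1 would have been called at 5 of the 58 peaks and one of 2 at 24. At Sox21, an observed change under 2.69 would not have been called.

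**Figure D3:**
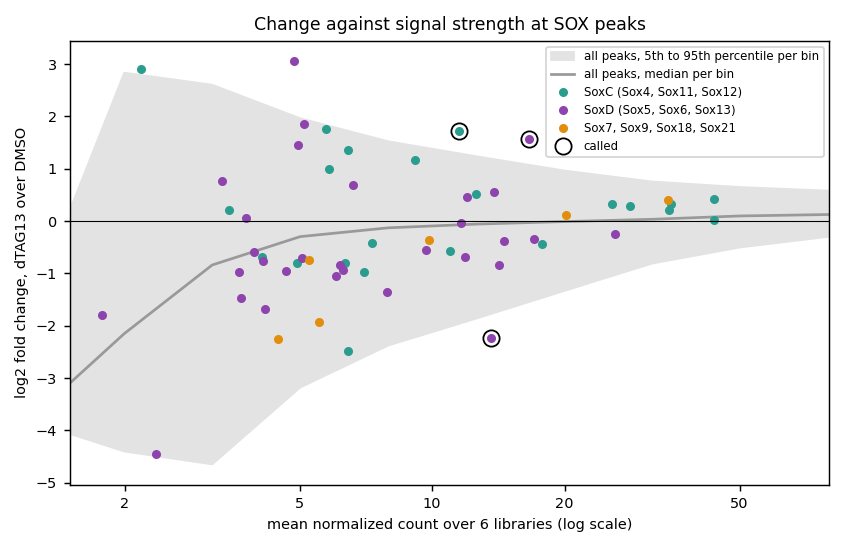
Log2 fold change (vertical axis) against the mean normalized count over 6 libraries (horizontal log axis) for the 58 SOX peaks, coloured by group; the grey band and line give the 5th to 95th percentile and the median of all peaks in bins of strength. The 3 circled called peaks lie outside the band, and the SOX peaks above a count of 25 lie between -0.25 and 0.42.

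The zero point was examined peak by peak, because more peaks of the whole table were called lower than higher and the table's median lay at -0.18. The Sox13 and Sox6 peaks passed under all 4 zero points. The Sox11 peak passed under 3 of the 4, and the Sox5 start site peak under 1 of the 4, with an adjusted p of 0.042 when centred on all peaks.

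**Figure D4:**
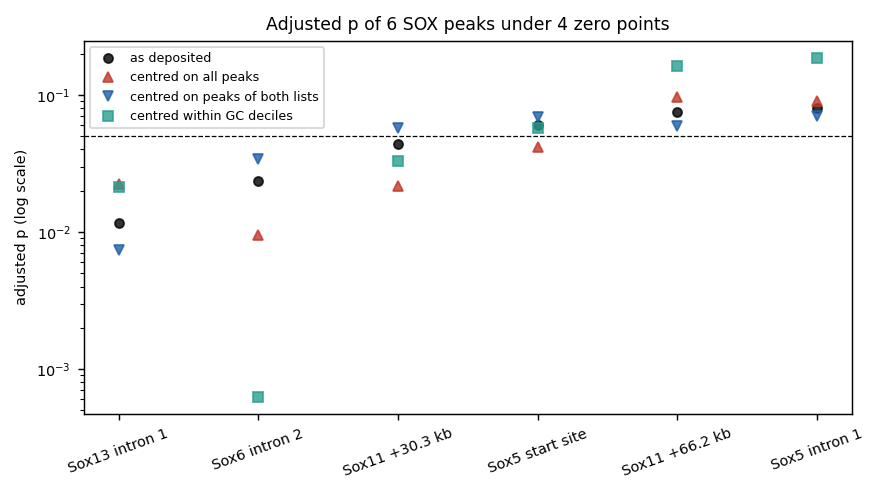
Adjusted p (vertical log axis) of the 3 called SOX peaks and the 3 next to the threshold under 4 zero points of the fold change: as deposited, centred on all peaks, on peaks of both lists, or within deciles of GC content. The dashed line is 0.05; the Sox11 peak crosses it at 0.0571 and the Sox5 start site peak at 0.042.

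The same loci were then looked up in the peak list pooled over the libraries of each group, which gives presence without a score. Of the 58 peaks, 22 (37.9%) overlapped both lists, 26 (44.8%) the DMSO list alone and 10 (17.2%) the dTAG13 list alone, against 48.2%, 40.1% and 11.8% of all peaks. All 3 Sox12 promoter and upstream peaks, the Sox4, Sox9 and both Sox11 promoter peaks were in both lists. Sox13 had 6 of 8 peaks in the DMSO list alone, and Sox11 had 4 of 10 in each of the single lists. With 1 pooled list per group there is no replicate error, and lists and fold changes come from the same libraries.

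**Figure D5:**
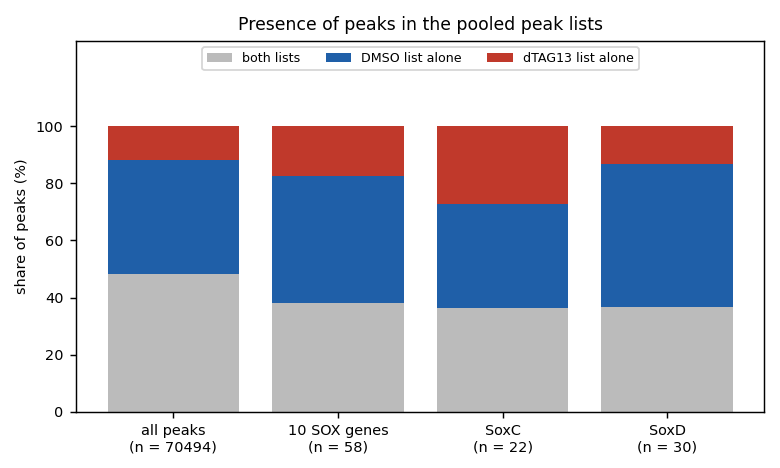
Share of peaks in percent (vertical axis, stacked) found in both pooled peak lists, in the DMSO list alone or in the dTAG13 list alone, for all 70494 peaks, the 58 SOX peaks, and the SoxC and SoxD genes. The dTAG13 list alone holds 11.8% of all peaks and 17.2% of the SOX peaks.

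Sequence words were counted within 100 bases on each side of every midpoint, on both strands. The OTX word was in 3 of 58 SOX peaks (5.17%), 2 at Sox11 and 1 at Sox7, against 8.85% of all peaks and 34.1% of all peaks called lower in dTAG13. None of these 3 was called, and their deposited log2 fold changes were -0.68, 0.22 and -1.93 (SE 0.91, 1.08 and 0.94), per the authors' deposited table. The control word was in 5 (8.62%), against 7.09% of all peaks and 16.1% of all peaks called lower in dTAG13. A SOX word was in 15 (25.9%, against 24.6%), 13 of them at the 30 SoxD peaks and 2 at the 22 SoxC peaks. GATA words were in 13 (22.4%, against 15.7%), 11 of them at SoxD peaks. A TEAD word was in 8 (13.8%, against 11.6%), a FOX word in 3 (5.17%, against 5.34%), a TCF word in 1 (1.72%, against 2.85%) and a T-box word in 0 (0%, against 1.71%). Other words also differed in share between all peaks called lower and all called higher in dTAG13. In that order the shares were 42.4% and 21.7% for SOX words and 30.2% and 17.5% for GATA. They were 9.69% and 22.7% for TEAD and 8.85% and 7.19% for FOX. For TCF they were 3.39% and 6.5%, and for T-box 1.56% and 4.63%. The window of 100 bases on each side differs from the peak's own bounds. The T-box word of the called Sox6 peak lies outside it. The control word of the called Sox13 peak is not wholly inside it, so it is not in the count of 5. The GATA count includes the Sox5 start site peak, whose GATA word lies beyond the peak's edge. The OTX count likewise includes a Sox11 peak of 62 bases (log2 fold change 0.22), whose OTX word lies beyond its edge. Within the peaks' own bounds the OTX word was in 3 SOX peaks, not the same 3, against 7.07% of all peaks. A match is a description of letters, and the differences between SoxC and SoxD were not tested.

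For comparison, the other SOX genes (Sry, Sox1, Sox2, Sox3, Sox8, Sox10, Sox14, Sox15, Sox17 and Sox30) had 11 peaks at 8 of 10 genes, with 2 calls, both higher in dTAG13, at Sox1 and Sox30, and 10 of the 11 values were above 0, where over all peaks 1.47% were called higher and 58.2% of values were below 0. At 15 genes of related HMG box and partner factors, such as the TCF/LEF factors, POU factors, Gli2 and Gli3, 3 of 80 peaks with an adjusted p were called (3.75%, against 5.26% of all peaks), 2 lower and 1 higher. The labelled cell type was looked at through the peaks assigned to marker genes. Of 12 definitive endoderm markers, all 12 had an assigned peak within 1000 bases of a start site, the marker's own or another gene's. So did 5 of 8 mesoderm, 6 of 6 neural or ectoderm and 3 of 5 pluripotency markers. Peaks at the markers' own start sites were not counted apart. Such open start sites do not by themselves single out endoderm here. An open start site is not expression of the gene.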

How the data were processed

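ATAC-seq was done on 3 DMSO and 3 dTAG13 libraries. Per the labels' protocols, live cells were sorted and 50000 cells went into each library. The submitters' processing notes name fastp, Bowtie2, MACS2, featureCounts, HOMER 4.11, ChIPseeker and the build mm10, with no role or order. Filters, duplicate removal and the shift of read ends are not given in the sources used here, so duplicates may be in the counts.

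Per the file headers, the authors' deposited table gives for each peak a signal (the mean count over the libraries after division by size factors), a log2 fold change of dTAG13 over DMSO with its SE, a score, a p-value and an adjusted p. The deposited score equalled the fold change divided by its SE to within 8.72e-07, as in a Wald-type test. The deposited adjusted p matched a Benjamini-Hochberg adjustment over 69128 peaks to within 7.87e-06, and the 1366 other peaks, with mean counts up to 1.87, had none. Other deposited columns hold peak bounds, annotations and marks by gene, and the deposited peak list of each group gives bounds for all its libraries together.

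No test between groups was run anew, since the table holds no values per library. The test planned for counts was therefore replaced by the deposited one. Intervals of 95% are the fold change ± the normal quantile times the SE. Group levels are the mean split by the fold change. Centred fold changes were tested again with the deposited SE. Peaks were set against GENCODE mouse release 21 and the RefSeq genome of the same build, with promoters within 1000 bases of a start site and an overlap of at least 1 base for the lists. Python 3.11.15, pandas 2.3.3, scipy 1.17.1, pysam 0.24.0 and matplotlib 3.10.9 were used, and the scripts were tested on simulated data. The members and gene lists were chosen with earlier results of these data known. Peaks named in full were every called one, each gene's strongest promoter peak and, where a gene had no call, its lowest-p peak. The other single peaks named were chosen after their values were seen.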

Additional observations from a re-analysis of the deposited data

How the results depend on the processing

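Across the alternatives, the adjusted p of the called Sox13, Sox6 and Sox11 peaks ranged over 0.00713 to 0.0225, 0.000626 to 0.0341 and 0.0218 to 0.0571. The number of SOX peaks called higher was 1 when fold changes were centred on the peaks of both lists, where the Sox11 peak kept a log2 value of 1.63. At an adjusted p under 0.01 in the authors' deposited test, 0 SOX peaks were called, 0 lower and 0 higher, with 10 at an unadjusted p under 0.05, and 1.75% of all peaks were called. At an adjusted p under 0.1, 6 were called, 3 of them lower, and 9.1% of all peaks were called. The median log2 fold change of the SOX peaks turned from -0.38 to 0.16 among peaks whose mean normalized count reached 10. With an overlap of at least 50% of both peaks, 1 SOX peak, at the Sox7 promoter, was in neither pooled list. The cause of these shifts was not tested. No paired analysis was possible because values per library are not part of what was analysed here, and leaving out each replicate was not run for the same reason. Signal strength limits what could be called: over the 58 SOX peaks the median change needed was 2.26 on the log2 scale.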

Other observations

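The authors' deposited table also marks genes as down or up, in columns whose making is not stated in the sources used here. It marks 370 of the 26796 genes with a peak as down (1.38%) and 429 as up (1.6%). Of the 10 SOX genes, Sox21 is marked down and 0 are marked up. The single Sox21 peak was not called, with a log2 fold change of -0.74 (SE 0.89) in the authors' deposited table. The 3 called SOX loci, Sox13, Sox6 and Sox11, carry no mark.

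Sox5, Sox6 and Sox11 each had at least 10 peaks, as did 588 of the 26796 genes (2.19%), where the median gene had 2 peaks. The called SOX peaks all lay outside promoters: of 13 promoter peaks at 9 of the 10 genes, 0 were called in the authors' deposited table and 1 had an unadjusted p under 0.05. Over the whole of the authors' deposited table, 2.28% of promoter peaks and 6.68% of other peaks were called.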
